A study of Mus musculus with 6 samples.

Results

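The genes described here carry the transcriptional arm of cAMP signaling. They are the CREB family factors Creb1, Crem and Atf1, the CREB-regulated transcription coactivators Crtc1, Crtc2 and Crtc3, and the NR4A orphan nuclear receptors Nr4a1, Nr4a2 and Nr4a3. The 9 genes were taken by symbol from the table of 13283 genes, and all 9 were found in it. RNA-seq covered 6 libraries from an immortalized mouse brown preadipocyte line (BAT cells) that stably expresses Cas9 and was differentiated in culture. In 3 libraries the cells were MICT1 KO pools made by CRISPR with sgRNAs against MICT1, a microprotein that binds the phosphatase PP2B (calcineurin). The other 3 libraries are the controls, in which the same line carried a scrambled sgRNA (Scr) and which are labelled WT. The cells of both groups received 10 µM forskolin for 6 h on day 6 of differentiation, so that an unstimulated level of these genes was not measured. The labels do not say which pool each KO library came from, and all libraries derive from 1 cell line. From the deposited values, an estimated 15437380 to 17917259 reads per library were assigned to the 13283 genes, which is not the sequencing depth. MICT1 itself was not analysed here, so that the KO labels were not checked on the targeted gene.

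Forskolin activates adenylyl cyclase, and the cAMP that follows frees the catalytic subunits of PKA. PKA phosphorylates CREB and its relatives CREM and ATF1, which sit on the cAMP response element (CRE) of their target genes, while dephosphorylation of the CRTC proteins, in part by calcineurin, lets them enter the nucleus and join CREB. The NR4A receptors are immediate early genes that CREB induces, and they act as transcription factors whose amount, rather than a known ligand, sets their activity. In brown fat, this route links adrenergic input from the cold to thermogenic gene expression.

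The members differed by family. All 3 NR4A receptors were higher and all 3 coactivators were lower in MICT1 KO than in Scr cells, whereas Creb1, Crem and Atf1 did not pass the test in either direction. An adjusted p under 0.05 was therefore reached by 6 of the 9 genes, against 56.9% of the 12507 genes tested, so that the number of members called was near that of all genes. In the NR4A family, 3 of 3 passed as higher (28.5% of all genes were higher), and among the coactivators 3 of 3 passed as lower (28.3% of all genes were lower). Fold changes and adjusted p come from limma-trend on log2(value + 1), with Benjamini-Hochberg adjustment over all genes tested. A value is read here as an estimate of reads for a gene divided by a size factor of its library, which the sources do not state. On that reading, values of 1 gene were compared between libraries. Gene positions are those of GENCODE vM21 on GRCm38.

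**Figure D1:**
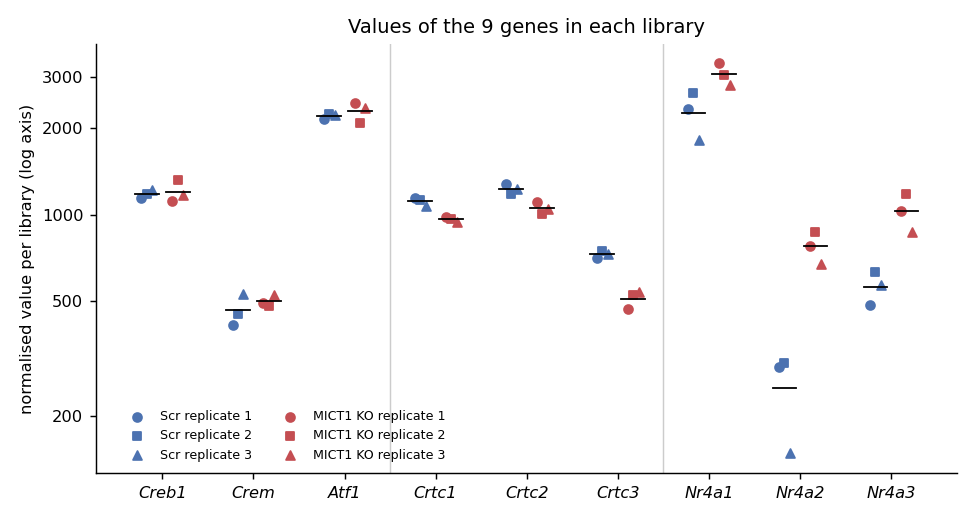
Normalised value (log axis) of each of the 9 genes in the 3 Scr (blue) and 3 MICT1 KO (red) libraries, with the symbol giving the replicate number and the black line the mean. The red points of the NR4A receptors lie above and those of the coactivators below all blue points of the same gene, while the points of Creb1, Crem and Atf1 overlap.

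The sequences upstream of the NR4A genes are shown because these are the members that rose, and because CREB is known to act on them through CRE motifs. In the 250 bases before the RefSeq start site, each of the 3 genes held 4 copies of the short CRE, TGACG or, read on the other strand, CGTCA. The full palindromic CRE TGACGTCA, which contains the short CRE in both orientations, was in none of these windows. The upstream sequences follow 5′ to 3′ on the strand of the gene, with each short CRE in capitals. The window of Nr4a3 is cut at 98 bases, where the GENCODE annotation places the first exon, and its last short CRE lies beyond that point.
Nr4a1: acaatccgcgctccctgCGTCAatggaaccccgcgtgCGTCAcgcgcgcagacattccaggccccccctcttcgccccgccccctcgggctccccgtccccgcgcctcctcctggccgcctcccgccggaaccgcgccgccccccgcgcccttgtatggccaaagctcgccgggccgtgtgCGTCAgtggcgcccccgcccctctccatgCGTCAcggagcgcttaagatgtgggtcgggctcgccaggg
Nr4a2: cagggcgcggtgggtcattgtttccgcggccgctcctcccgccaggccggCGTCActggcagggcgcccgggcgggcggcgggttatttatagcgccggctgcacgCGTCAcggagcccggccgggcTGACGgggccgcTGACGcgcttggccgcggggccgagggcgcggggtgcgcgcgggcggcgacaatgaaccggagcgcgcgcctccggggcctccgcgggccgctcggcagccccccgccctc
Nr4a3: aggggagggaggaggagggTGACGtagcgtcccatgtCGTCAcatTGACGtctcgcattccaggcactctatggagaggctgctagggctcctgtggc
On GRCm38.p6 these are chr15:101266596-101266845 on the plus strand, chr2:57124004-57124253 on the minus strand and chr4:48045055-48045152 on the plus strand. The Nr4a1 window precedes the RefSeq start but lies inside the gene as GENCODE draws it, which also has a more distant start, and no GENCODE exon overlaps it.

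A window was found for 7 of the 9 genes. Of the other members, Atf1 held 1 short CRE, and Creb1, Crtc1 and Crtc3 held 0. Over all 32851 RefSeq windows of the same length, 17.8% held at least 1 short CRE, 0.137% held at least 4, and 1.55% held the full CRE. The NR4A windows are rich in G and C (74.4% for Nr4a1, 80.0% for Nr4a2 and 63.6% for Nr4a3, against a median of 52.4% over all windows), and among the 6582 windows with a GC content at least that of Nr4a3, 0.38% held at least 4. The NBRE AAAGGTCA (TGACCTTT on the other strand), to which NR4A receptors bind as monomers, was in none of the 7 windows and in 1.34% of all windows. The cut of at least 4 was the number found in the NR4A windows and the GC cut was their lowest, so these shares are no test. A match is a description of the letters, and binding was not measured here.

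**Figure D2:**
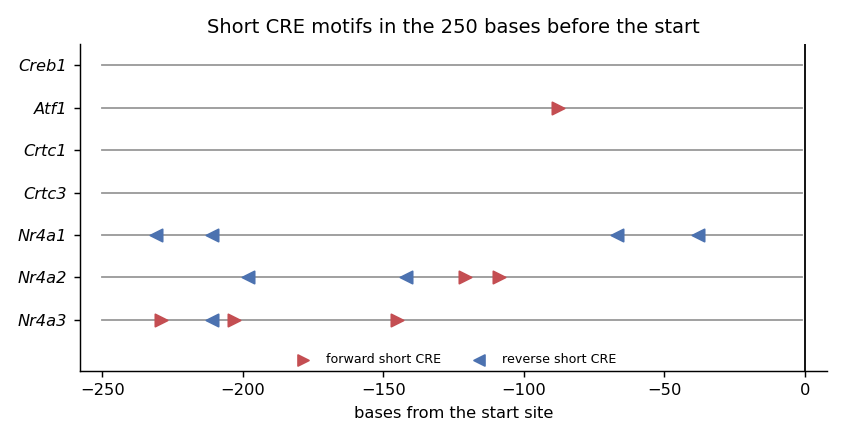
Positions of the short CRE motifs in the 250 bases before the RefSeq start site of the 7 genes with a window, in bases from the start, pointing right for TGACG and left for CGTCA. Each NR4A window holds 4, Atf1 holds 1 and the lines of Creb1, Crtc1 and Crtc3 are empty.

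Nr4a2 (chr2:57106830-57124003, minus strand), also called NURR1 and best known from dopaminergic neurons, changed most. The Scr libraries read 297, 307 and 149 and those of MICT1 KO cells 781, 871 and 674, so that the lowest KO value lay above every Scr value by more than the spread within either group. The mean ± SD of 3 libraries was 251 ± 88.6 in Scr against 775 ± 98.9 in KO cells, which gave a log2 fold change of 1.69 (SE 0.18, 95% interval 1.30 to 2.07, adjusted p = 1.14e-07 from limma-trend). Scr replicate 3 was far below the other Scr libraries, and without it the log2 fold change was 1.35 (adjusted p = 4.99e-09 from limma-trend), the lowest among the fits that left out a library.

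Nr4a3 (NOR1, chr4:48045153-48086447, plus strand), which overlaps in function with Nr4a1, rose less. The Scr values were 487, 631 and 571 and the KO values 1029.6, 1182 and 872, again without overlap. Means ± SD were 563 ± 72.6 and 1028 ± 155 (n = 3 each), and the log2 fold change reached 0.86 (SE 0.11, 95% interval 0.64 to 1.09, adjusted p = 6.19e-07 from limma-trend).

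Nr4a1 (NUR77, chr15:101254269-101274795, plus strand), a receptor induced by adrenergic stimulation in many tissues, had the highest values of the 3 and the smallest change. It was at 2316, 2632 and 1809 in Scr and at 3339, 3054 and 2814 in MICT1 KO libraries. The lowest KO value exceeded the highest Scr value, but only by a small margin. Means ± SD were 2252 ± 415 and 3069 ± 263 (n = 3 each), or 0.46 as a log2 fold change (SE 0.095, 95% interval 0.26 to 0.66, adjusted p = 0.000317 from limma-trend). As for Nr4a2, Scr replicate 3 was the lowest library, and without it the log2 fold change of Nr4a1 was 0.31 (adjusted p = 0.00191 from limma-trend).

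The coactivators bind CREB when dephosphorylated and are held in the cytoplasm by the salt-inducible kinases. Crtc3 (chr7:80586627-80688877, minus strand), which is expressed in fat and was linked to adrenergic signaling there, fell most. Its values of 706, 745 and 731 in Scr libraries were close together, and those of 471, 525 and 539 in KO libraries were all lower. Means ± SD were 727 ± 19.7 and 512 ± 35.9 (n = 3 each), or -0.51 as a log2 fold change (SE 0.087, 95% interval -0.69 to -0.33, adjusted p = 4.45e-05 from limma-trend).

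Crtc2 (chr3:90254163-90264125, plus strand), the coactivator known from fasting gluconeogenesis in the liver, was at 1279, 1180.05 and 1230.3 in Scr and at 1106, 1004 and 1049 in KO libraries. The groups did not overlap, although the difference was small. Means ± SD were 1229.7 ± 49.4 and 1053 ± 51.0 (n = 3 each), and the log2 fold change of Crtc2 was -0.22 (SE 0.070, 95% interval -0.37 to -0.077, adjusted p = 0.0101 from limma-trend). With each library left out in turn its adjusted p reached 0.04998, without Scr replicate 1 (log2 fold change -0.20).

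Crtc1, best studied in neurons, was at 1145, 1125 and 1070.5 in Scr and at 978, 964 and 942 in KO libraries. Here too every KO value was below every Scr value. Means ± SD were 1114 ± 38.8 and 961 ± 18.1 (n = 3 each), and the log2 fold change of Crtc1 was -0.21 (SE 0.070, 95% interval -0.36 to -0.066, adjusted p = 0.0139 from limma-trend). It did not pass without Scr replicate 1 (-0.19, limma-trend adjusted p = 0.0553), so that 5 of the 9 genes were then called.

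The DNA-binding partners of these coactivators showed no such difference. Creb1 (chr1:64532645-64604548, plus strand), which encodes CREB, was at 1137, 1174 and 1219 in Scr and at 1114, 1322 and 1167 in KO libraries. The KO values included both the lowest and the highest of the 6. The log2 fold change of Creb1 was 0.027, with a 95% interval of -0.13 to 0.18 (adjusted p = 0.781 from limma-trend).

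Atf1 (chr15:100227819-100261244, plus strand), a close relative that pairs with CREB, had values of 2149, 2232 and 2208 in Scr and of 2441, 2079 and 2331 in KO libraries. The spread was wider in the KO group, and its values lay on both sides of those of Scr. For Atf1 the log2 fold change was 0.053, with a 95% interval of -0.081 to 0.19 (adjusted p = 0.504 from limma-trend).

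Crem encodes activators and, from an internal promoter induced by cAMP, the short repressor ICER, and the deposited values do not separate these products. Its values were 412, 453 and 529 in Scr and 492, 483 and 527 in KO libraries, with the highest value in Scr. The log2 fold change of Crem was 0.11, with a 95% interval of -0.10 to 0.33 (adjusted p = 0.374 from limma-trend). The intervals of Creb1, Atf1 and Crem thus exclude neither 0 nor small changes in either direction. Over all genes tested, the values of the groups did not overlap in 62.0%, and among these members they did not overlap in 6 of 9.

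**Figure D3:**
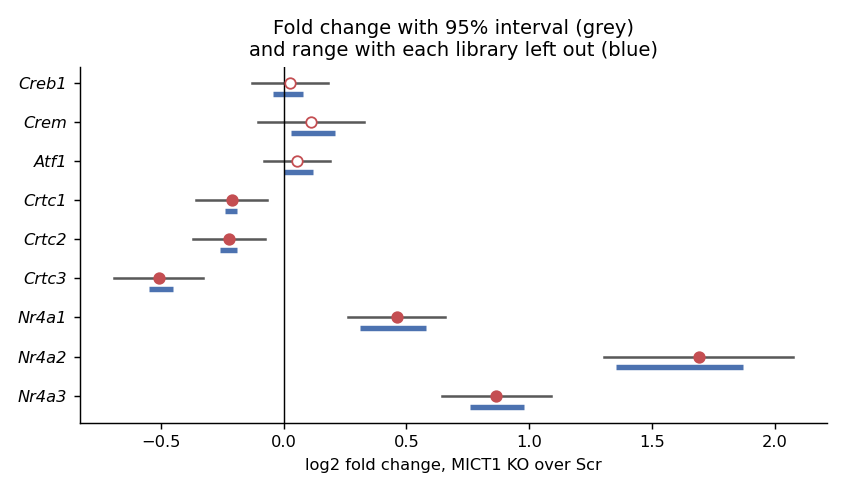
Log2 fold change of MICT1 KO over Scr for the 9 genes (points, filled where the adjusted p was under 0.05) with the 95% interval from limma-trend (grey) and the range of the estimate with each library left out in turn (blue). The NR4A receptors lie from 0.46 to 1.69, the coactivators from -0.51 to -0.21, and the CREB factors at 0.027 to 0.11 with intervals across 0.

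Levels of different genes were compared as RPKM, with the length of the merged exons of GENCODE vM21. In Scr cells Atf1 (43.9 ± 0.214 RPKM, SD, n = 3) and Nr4a1 (39.2 ± 7.01 RPKM) stood highest, and their libraries overlapped. Crtc2 followed at 18.4 ± 1.03 RPKM. Crtc1, Nr4a3, Creb1, Crem and Crtc3 lay between 4.51 and 6.09 RPKM on average, and Nr4a3 overlapped with Crtc1, Creb1 and Crem. Nr4a2 was the lowest on average at 3.77 ± 1.33 RPKM, with a range that overlapped with those of Crtc3 and Crem. In MICT1 KO cells Nr4a1 was first at 53.6 ± 4.27 RPKM, and all its libraries lay above those of Atf1 (45.7 ± 3.54 RPKM). Nr4a2 had moved from place 9 to place 4 of the 9 genes, at 11.7 ± 1.49 RPKM, with a range that overlapped with that of Nr4a3 (10.5 ± 1.59 RPKM), and Crtc3 was last at 3.18 ± 0.242 RPKM.

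The size and order of these levels rest on the length used. With the median length of the coding transcripts, an alternative chosen after seeing the data, Creb1 in Scr cells was at 50.3 RPKM instead of 5.23 and Crem at 24.5 instead of 4.82, since both genes have merged exons far longer than their coding transcripts. Nr4a1 was then at 54.7 and Atf1 at 56.7 RPKM. Creb1 was at place 3 instead of 6 in both groups and Nr4a2 at place 6 instead of 4 in KO cells. The first and second places of Atf1 and Nr4a1, the last place of Nr4a2 in Scr and that of Crtc3 in KO cells were the same with both lengths.

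**Figure D4:**
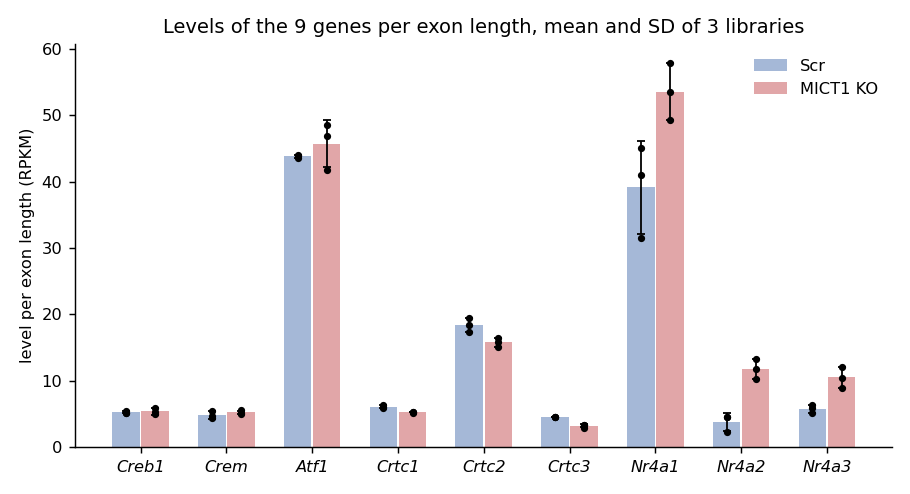
Level of each gene per merged exon length (RPKM) in Scr (blue) and MICT1 KO (red) libraries, as the mean (bar) with the SD (line) of 3 libraries (points). Atf1 and Nr4a1 stand highest in both groups, and the bars of Nr4a2 and Nr4a3 rise from 3.77 and 5.74 to 11.7 and 10.5 RPKM.

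Within the NR4A family the make-up also differed between the groups. Nr4a1 held 79.6% to 81.0% of the summed RPKM of the 3 receptors in Scr libraries and 67.9% to 72.3% in KO libraries. The share of Nr4a2 went from 5.65% to 8.97% in Scr to 14.6% to 16.7% in KO libraries, without overlap, whereas that of Nr4a3 (9.98% to 14.7% and 13.1% to 15.4%) overlapped. The summed RPKM of the family had a mean ± SD over 3 libraries of 48.7 ± 8.41 for Scr against 75.8 ± 6.32 for KO cells. For the coactivators the sum was 29.0 ± 1.15 and 24.2 ± 0.522 RPKM, with Crtc2 the largest part in every library (62.0% to 66.6%). The CREB family sum was 53.9 ± 0.934 and 56.3 ± 3.15 RPKM. With the coding transcript length this sum was 131.5 ± 4.72 and 137.2 ± 1.53 RPKM, and those of the NR4A genes (65.17 ± 11.4 and 99.65 ± 8.14) and the coactivators (48.02 ± 1.78 and 39.98 ± 0.713) moved less, so that the standing of the families beside each other rests on the length. The ratio of KO to Scr was 1.56 or 1.53 for the NR4A sum, 0.836 or 0.833 for the coactivators and 1.04 with either length for the CREB family.

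The regulators of this pathway were taken from lists of genes that are not members. These lists were drawn up with earlier results of these data known, so their shares of calls are no independent result. Of 7 genes for the acetyltransferases that CREB recruits and for the kinases of the SIK pathway, 7 passed as lower and 0 as higher (28.3% and 28.5% of all genes), at a median log2 fold change of -0.30 (-0.0053 over all genes tested). Sik2, the salt-inducible kinase best known from adipocytes, which phosphorylates the CRTC proteins, was at 2006, 2056 and 2325 in Scr and at 335, 380.2 and 455 in KO libraries. This gave -2.45 as a log2 fold change (SE 0.095, limma-trend adjusted p = 7.53e-15). The KO libraries of Sik2 were all more than 4-fold below those of Scr. Crebbp (-0.41) and Ep300 (-0.30), which encode the acetyltransferases CBP and p300, and Mark2 (-0.32), a kinase related to the SIKs, also fell. Sik1 (-0.20), itself a CREB target, Sik3 (-0.24) and Stk11 (-0.13), which encodes the upstream kinase LKB1, passed in the full data. Without KO replicate 3 these 3 genes did not pass (adjusted p of 0.0543, 0.0645 and 0.0847 from limma-trend), which left 4 of the 7 called. Stk11 also did not pass when scaled by library sum (adjusted p = 0.0581), by quantiles or with a replicate block, and in 4 of the 6 fits that left out a library, nor did Sik1 without Scr replicate 2 (adjusted p = 0.107).

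Of 8 tested kinases that can phosphorylate CREB at its activating site, 2 were higher, 3 were lower and 3 did not pass, a share of calls near the 56.9% of all genes. Rps6ka2 (log2 fold change 1.30) and Rps6ka4 (0.71), which encode a ribosomal S6 kinase and the kinase MSK2, were higher. Rps6ka3 (-0.26), Prkacb (-0.24), the gene of a PKA catalytic subunit, and Mapkapk2 (-0.14) were lower, the last without a call when scaled by library sum (adjusted p = 0.0504 from limma-trend), by quantiles or with a replicate block, and in 4 of the 6 fits that left out a library (adjusted p up to 0.205). The main PKA catalytic subunit gene, Prkaca, had a log2 fold change of -0.027 (adjusted p = 0.726 from limma-trend).

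RXR receptors form heterodimers with Nr4a1 and Nr4a2. Rxra was at 1988, 1798 and 2321 in Scr and at 1148, 956 and 1085 in KO libraries, well apart. As a log2 fold change this was -0.93 (SE 0.085, limma-trend adjusted p = 7.77e-09), and Rxrb changed by -0.37 (adjusted p = 9.25e-05). Both RXR genes measured thus passed as lower (28.3% of all genes were lower), whereas the NR4A receptors were higher. Rxrg, also on this list, was not measured. A relation between these changes was not tested.

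Among 14 tested genes of related ATF and CREB3 factors, 5 were higher, 1 was lower and 8 did not pass, a smaller share of calls than the 56.9% of all genes. Atf3, a stress-induced factor, was at 579, 662 and 292 in Scr and at 2239, 1902 and 1798 in KO libraries. The log2 fold change of Atf3 was 2.03 (adjusted p = 5.26e-09 from limma-trend), and Scr replicate 3 was again the lowest library. Creb5 (1.93), at low values of at most 144, and Atf5 (0.52) were also higher, and Atf7 (-0.55), a relative of Atf2, was lower. The genes counted as higher include Atf4 (0.17, adjusted p = 0.0326 from limma-trend), whose call was not firm. Atf4 did not pass when scaled by quantiles (limma-trend adjusted p = 0.113). Nor did it pass in 3 of the 6 fits that left out a library (adjusted p up to 0.270). Atf6b passed as higher only when scaled by quantiles (limma-trend adjusted p = 0.0349).

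Known CREB target genes moved in both directions. All 24 tested genes of this list passed, against 56.9% of all genes. In MICT1 KO cells 13 were higher and 11 lower (28.5% and 28.3% of all genes), at a median log2 fold change of 0.58. Since this list too was drawn up with earlier results of these data known, its share of calls is no independent result. The largest rise was that of Il6, the gene of interleukin 6, from 246, 258 and 164 in Scr to 7635, 7302 and 6398 in KO libraries (5.02 as a log2 fold change, limma-trend adjusted p = 2.06e-18). Ptgs2, which encodes the prostaglandin synthase COX-2, rose with a log2 fold change of 3.06 (adjusted p = 1.30e-18), and Areg (1.95) and Bdnf (1.89), which encode secreted growth factors, followed. The immediate early genes Egr1 (1.82) and Fos (1.24) were also higher, and are named here after their values were seen. On the other side, and also named after the values were seen, Pde4d, which encodes a phosphodiesterase that breaks down cAMP, went from 5195, 6212 and 7239 in Scr to 2987, 3263 and 2985 in KO libraries (-1.0015 as a log2 fold change, limma-trend adjusted p = 1.45e-09). The KO libraries of Pde4d were close together and below all Scr libraries. Rgs2 (-0.92), a regulator of G protein signaling, Nfil3 (-0.78) and Fosb (-0.67) fell as well. In Fosb the groups overlapped, since Scr replicate 3 (245) lay below KO replicate 3 (263). Ppargc1a did not reach the minimum value for testing.

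**Figure D5:**
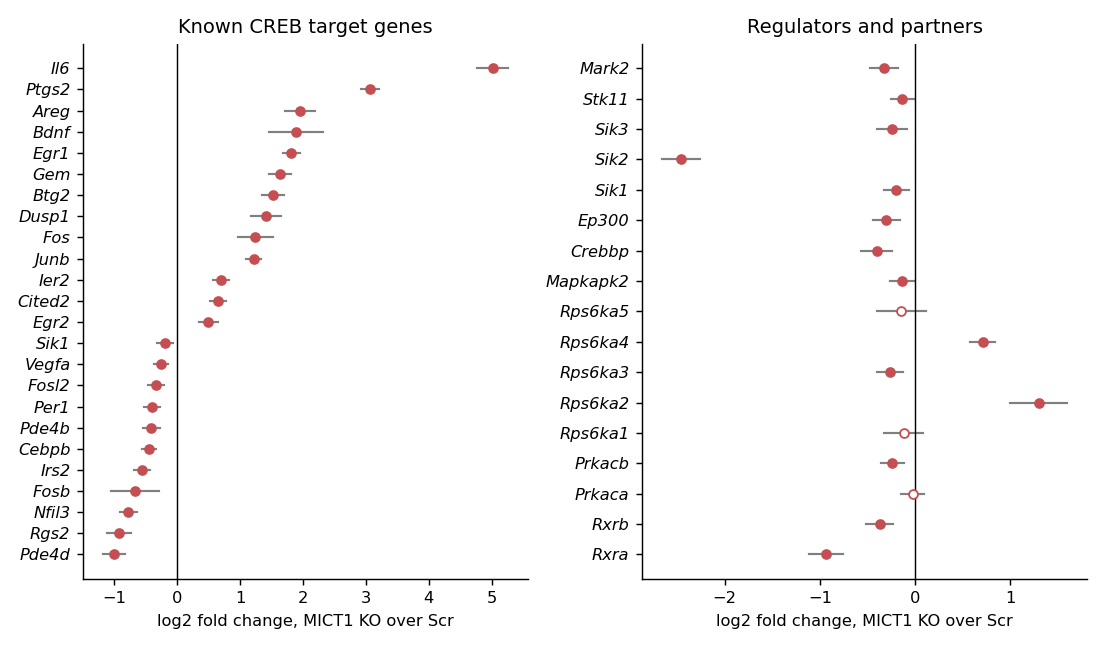
Log2 fold change of MICT1 KO over Scr with its 95% interval (limma-trend) for 24 known CREB target genes (left) and for the regulators and partners of CREB, CRTC and NR4A proteins (right), filled where the adjusted p was under 0.05. The targets run from Pde4d as the lowest to 5.02 for Il6, and among the regulators Sik2 stands apart at -2.45.

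Scr replicate 3 had the lowest value of the Scr group for Nr4a1, Nr4a2 and Crtc1, that is for 3 of the 9 members (33.3%), near the 34.6% of all genes tested. Among the 24 CREB target genes it was the lowest for 14 (58.3%). Leaving it out changed no call among the members.

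Adipocyte markers also differed between the groups. Of 10 genes listed for brown adipocytes, most of which mark fat cells in general, 8 were measured, all 8 were lower in MICT1 KO cells, and their summed value was 68187 to 80282 in Scr against 5709 to 9617 in KO libraries. Most of this sum was Fabp4, the fatty acid binding protein of adipocytes (48661 to 56242 against 3862 to 7002), and the other 7 genes together were at 19526 to 25156 against 1848 to 2615. Ucp1 was at 20.8 to 30.5 in Scr, a low value for the defining gene of brown fat, and at 1.05 to 9.33 in KO libraries. Of 7 progenitor markers listed, 5 were measured and 3 tested. Ly6a was higher (1.39) and Dlk1 (-3.47) and Pdgfra (-0.19) were lower. Pdgfra had no call when scaled by library sum (adjusted p = 0.0506 from limma-trend) or by quantiles and in 4 of the 6 fits that left out a library. The summed value of the 5 was 3165 to 3459 in Scr and 2730.4 to 3133 in KO libraries. Only 4 of 10 macrophage markers listed were measured. Among these 4 only Cd14 was higher (1.24), while Csf1r, Cd68 and Mrc1 did not pass. The summed value of the 4 was 267 to 384 in Scr and 516 to 638 in KO libraries. Most of its rise was that of Cd14, from a mean of 192 in Scr to 444 in KO libraries. Of 4 endothelial markers listed only Cdh5 was measured, at 5.93 to 12.1 against 25.9 to 33.4. The summed value of the 2 muscle markers measured, of 6 listed, was 62.1 to 77.1 against 54.8 to 94.4. The part of these differences in the results on the members was not tested, and in bulk RNA fewer cells of a type and less RNA per cell cannot be told apart.

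By Pearson correlation of log2(value + 1) over the 6 libraries, the genes most like Nr4a1 were 2500004C02Rik (r = 0.993), Fbxl17 (r = 0.991) and Rfxank (r = 0.991). Those most like Crtc2 were Ano10 (r = 0.997), Sucla2 (r = 0.994) and Ndufs8 (r = 0.993), the last a subunit of respiratory complex I. For Crem they were Pdxk-ps (r = 0.995), Iqcb1 (r = 0.966) and Usp33 (r = 0.965). These are the highest of 12498 correlations each, over 6 libraries only, and are given as a description. The 3 genes most like Crtc2 were themselves lower in KO cells, whereas those most like Crem did not pass the test between the groups, nor did 2500004C02Rik and Rfxank. The difference between the groups enters these correlations, so such calls follow in part from how the genes were picked.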

How the data were processed

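RNA-seq of 3 Scr and 3 MICT1 KO libraries was used as deposited. According to the methods, stranded total RNA libraries were sequenced paired-end and aligned with Partek software to NCBI38/mm10, and the submitters' processing notes also name STAR and DESeq2 without a role. The counting was not given in the sources used here. The table the authors deposited holds a normalized signal, not raw counts. Of its values under 20, 88.8% to 90.4% were whole multiples (tolerance 0.01) of a step that differed between libraries. From this step the reads assigned to the listed genes in each library were estimated. The remaining values hold fractions of reads, so that no count test was run.

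The signal was analysed on the log2(value + 1) scale by limma-trend (limma 3.58.1, R 4.3.3) for the 12507 genes at 10 or more in 3 or more libraries, without a replicate block. Adjusted p (Benjamini-Hochberg over these genes) had a threshold of 0.05. Fold changes on this scale understate those of low genes. RPKM was scaled to the summed signal of each library. Promoter windows came from RefSeq (GRCm38.p6). The members and lists were chosen with earlier results of these data known. Named genes were the members, up to 4 called genes per list with the largest change, and the 3 genes most like Crem, Crtc2 and Nr4a1. The alternatives were scaling by library sum or quantiles, pseudocounts of 0.5 and 5, no filter or a highest value of at least 4 CPM, limma-voom, a replicate block and each library left out, and, added after seeing the data, another length for RPKM. The methods call the replicates biological, the labels do not name separate cultures, and p-values measure the spread between these samples.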

Additional observations from a re-analysis of the deposited data

How the results depend on the processing

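Of 126 alternative values of the members' log2 fold changes, 124 kept their direction and their side of the threshold. The exceptions were Crtc1 without Scr replicate 1 (-0.19, adjusted p = 0.0553 from limma-trend) and Creb1, which had no call and turned to -0.045 without KO replicate 2. With each library left out in turn, Crtc1 lay between -0.24 and -0.19, Creb1 between -0.045 and 0.079, and the number of members called between 5 and 6. The number of SIK pathway and acetyltransferase genes called lower lay between 4 and 7 in these fits. Of the pathway genes, 6 changed their call under some alternative. The 18 pathway genes named by rule kept direction and call in 252 of 252 alternative values. Most of them were picked as called genes with the largest change of their list, so this stability was partly set by the choice. Over all genes tested, the same-numbered libraries of the groups had correlations of their deviations of -0.024, -0.016 and 0.064. These values cannot tell whether single genes were paired by replicate number. The replicate block gave 7055 genes called in place of 7113 and 6 of the 9 members. With it the limma-trend adjusted p fell from 0.000317 to 6.58e-06 for Nr4a1 and from 1.14e-07 to 4.91e-11 for Nr4a2. It rose from 0.0139 to 0.0186 for Crtc1 and from 0.0101 to 0.0109 for Crtc2. Of the same-numbered libraries, Scr replicate 3 alone correlated best with its own number.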
